A study of Mus musculus with 6 samples.

Results

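Hepatocyte lineage transcription factors were followed in bulk RNA sequencing of mouse liver, through 9 genes chosen by name: Foxa1, Foxa2, Foxa3, Onecut1, Onecut2, Cebpa, Cebpb, Prox1 and Gata4. All 9 were found among the 56350 gene IDs of the count table, and all 9 were among the 16051 genes that passed the filter on low counts. The libraries came from 3 liver samples labelled wild-type (WT) and 3 labelled as an Atg14 knockout specific to hepatocytes (HepKO). The Atg14 protein targets a lipid kinase to the membranes where autophagosomes begin, and the comparison asks how liver expression differs where that gene is targeted. For both groups the sources used here do not give strain, age, sex, diet or collection time, nor the Cre driver. Nothing in the labels ties each sample to an animal of its own, so the p-values rest on the spread among these libraries, which may be technical.

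Hepatocyte identity is held by a small set of transcription factors that bind each other's genes and the genes of liver metabolism. The FOXA proteins are forkhead factors that open compact chromatin early in liver development, and the ONECUT proteins (HNF6 and its relative) act in liver and bile duct formation. C/EBPα drives the metabolic genes of the mature hepatocyte, while C/EBPβ is induced in the acute-phase response, by fasting and in regeneration. PROX1 is a homeobox factor needed for hepatoblast migration and also defines lymphatic endothelium, and GATA4 is a zinc finger factor of the early endoderm and of sinusoidal endothelial cells.

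Promoter sequence is shown for the pair of C/EBP genes, whose mRNA fell, and for the 2 FOXA genes with a forkhead or ONECUT motif in a window. Each window runs from 250 bases before to 50 bases after the RefSeq start site in GRCm38.p6, 5′ to 3′ on the strand of the gene. Capitals mark matches, on either strand, to the motifs searched.

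Cebpa: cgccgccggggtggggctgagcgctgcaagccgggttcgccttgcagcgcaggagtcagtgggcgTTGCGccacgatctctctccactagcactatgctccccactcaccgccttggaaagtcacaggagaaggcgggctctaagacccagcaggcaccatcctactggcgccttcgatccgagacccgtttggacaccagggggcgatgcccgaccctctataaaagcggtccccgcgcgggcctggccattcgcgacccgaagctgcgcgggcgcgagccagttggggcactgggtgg

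Cebpb: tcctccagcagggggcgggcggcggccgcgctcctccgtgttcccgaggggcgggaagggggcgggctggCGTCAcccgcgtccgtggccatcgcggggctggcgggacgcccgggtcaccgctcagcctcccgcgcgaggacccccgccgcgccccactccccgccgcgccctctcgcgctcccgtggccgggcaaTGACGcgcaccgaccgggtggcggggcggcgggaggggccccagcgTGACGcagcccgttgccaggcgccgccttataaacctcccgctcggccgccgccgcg

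Foxa1: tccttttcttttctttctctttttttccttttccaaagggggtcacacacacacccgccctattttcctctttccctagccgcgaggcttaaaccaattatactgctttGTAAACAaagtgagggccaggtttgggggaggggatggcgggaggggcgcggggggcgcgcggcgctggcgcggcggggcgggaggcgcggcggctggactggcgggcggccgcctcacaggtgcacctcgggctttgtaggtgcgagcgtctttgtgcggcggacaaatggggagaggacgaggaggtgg

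Foxa2: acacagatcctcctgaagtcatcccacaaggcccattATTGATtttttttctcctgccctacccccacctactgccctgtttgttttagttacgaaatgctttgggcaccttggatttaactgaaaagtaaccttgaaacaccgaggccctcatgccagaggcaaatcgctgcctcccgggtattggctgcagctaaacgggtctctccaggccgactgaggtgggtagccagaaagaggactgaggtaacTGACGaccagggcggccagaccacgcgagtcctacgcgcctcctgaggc

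The Cebpa window lies at chr7:35119043-35119342 on the plus strand and holds the short C/EBP motif TTGCG at -185 from the start. That motif is found in 17.4% of all 32851 promoter windows of 300 bases, and the longer C/EBP motif TTGCNNAA, found in 10.8% of windows, is not in the windows of the members. The Cebpb window, at chr2:167688665-167688964 on the plus strand, holds the core of cyclic AMP response elements, TGACG, at -180, -53 and -7. TGACG occurs in 20.8% of windows. The Foxa1 window, at chr12:57546062-57546361 on the minus strand, holds the forkhead motif TGTTTAC at -141, read on the opposite strand, and 3.65% of windows hold that motif. The Foxa2 window of the outermost of 3 RefSeq starts, at chr2:148046920-148047219 on the minus strand, holds the ONECUT motif ATTGAT at -213, found in 7.54% of windows, and TGACG at 2. The GATA motif AGATAA (11.2% of windows) and the E-box CACGTG (7.15%) were searched as well and are not in these 4 windows. No listed motif overlaps another there. TTGCG was added to the search after the windows had been read. The windows not shown hold TTGCG at -183 in Foxa3, CACGTG at -232 and TGACG at -139 in Onecut1, and, at another start of Foxa2, TTGCG at -151 and AGATAA at -183. RefSeq windows were matched for 7 of the 9 genes, without Onecut2 and Gata4.

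Libraries held 33145684 to 48951937 counts, and the members' summed share of a library was 0.0603% to 0.0676% (WT) and 0.0549% to 0.0688% (HepKO). Values are CPM, a gene's count scaled to a fixed library size, on library totals multiplied by TMM factors (trimmed mean of M-values), which ran from 0.824 to 0.860 in WT and from 1.19 to 1.21 in HepKO. Fold changes are HepKO over WT by edgeR's quasi-likelihood test, with Benjamini-Hochberg adjustment over all genes (FDR) and a call at an FDR under 0.05. The error after ± is the SE where a log2 fold change is given, and otherwise the SD of a group (n = 3). With TMM the log2 fold changes of the tested genes had a median of 0.01, and with plain library totals 0.52. Atg14, on chromosome 14, had 620, 796 and 719 counts in WT and 329, 379 and 313 counts in HepKO, or 21.4 ± 0.682 and 7.36 ± 1.48 CPM. It was lower in every HepKO library, the direction its label gives (log2 fold change -1.54 ± 0.16, FDR 4.69e-04). Hepatocyte markers were high in both groups, with a sum of 104500 to 130700 CPM in WT and 44820 to 60000 CPM in HepKO, and 7 of 9 tested fell (4 with library totals). Among other cells of the liver, 3 of 3 tested neutrophil markers rose (summed level 1.73 to 4.68 CPM in WT, 6.91 to 21.04 in HepKO). Only 1 was called without HepKO replicate 3 or with the replicate number as a block, and 2 by limma-voom or without WT replicate 3. Of 5 lymphocyte markers 1 rose (8.72 to 18.1 and 34.7 to 49.6 CPM), and of 7 stellate cell markers 2 rose, 5 with library totals (97.3 to 142 and 188 to 221 CPM). The 2 were Col1a1, with means of 8.80 CPM in WT and 62.0 CPM in HepKO, and Pdgfrb, with 6.39 and 15.2 CPM. Lrat, Reln, Des, Colec11 and Acta2 were not called under TMM, with log2 fold changes of 0.51, 0.14, 0.14, 0.08 and 0.78. In bulk tissue, fewer cells of a type and less RNA per cell cannot be told apart.

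Of the 9 factors, 3 fell and 0 rose by edgeR, DESeq2 or limma-voom; none was higher at an unadjusted p under 0.05 in edgeR. Over all tested genes 38.2% were called, 18.7% lower and 19.5% higher in HepKO, so the members' share of calls was close to that background. The median log2 fold change of the members was -0.30. Those that fell under TMM scaling were Cebpb, Cebpa and Prox1, while the FOXA, ONECUT and GATA4 genes were not called. In CPM the groups were fully separated for 4 of the 9, the called genes and Onecut2, and 53.5% of all tested genes were separated in this way. With library totals in place of TMM, 3 members were higher (Foxa1, Foxa3 and Gata4), 1 was lower (Cebpb) and the median was 0.22.

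**Figure D1:**
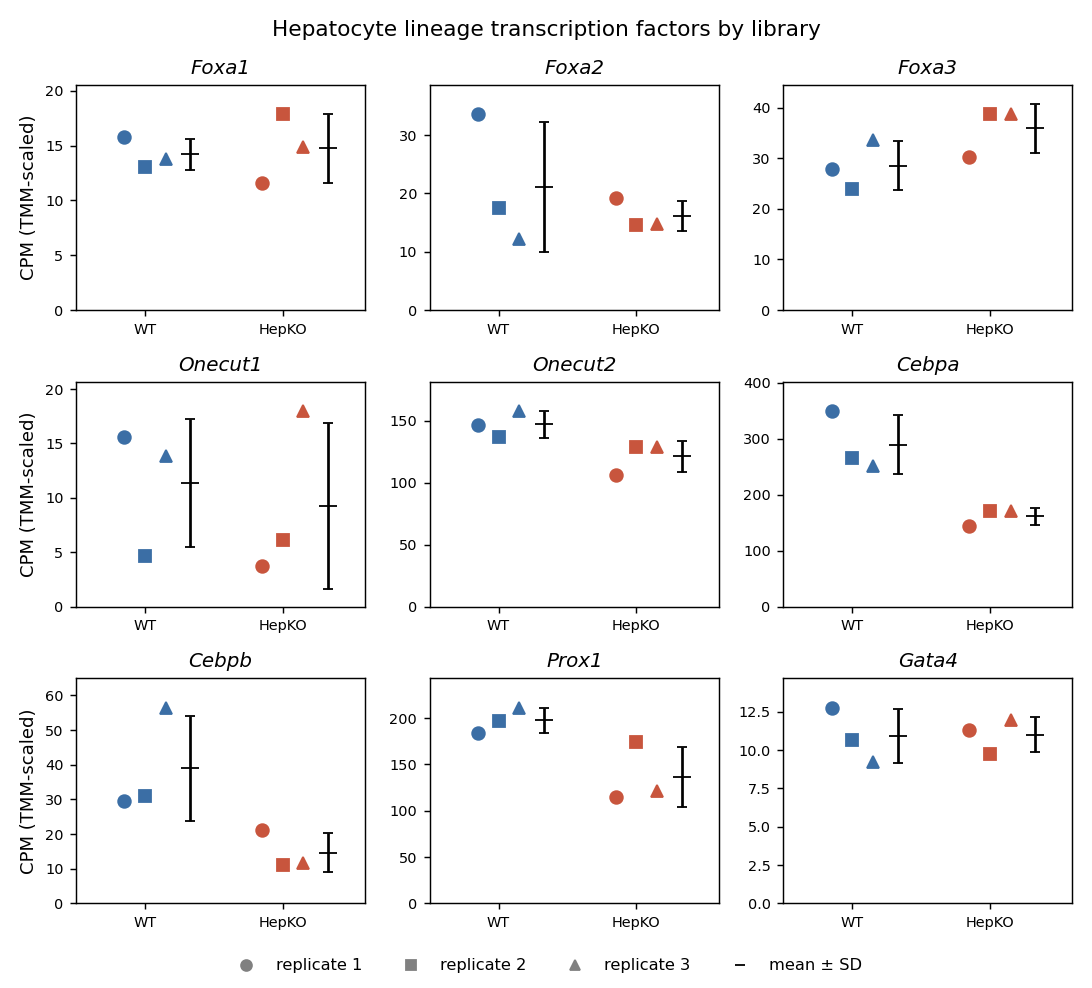
Level of each factor in each library, in CPM on TMM-scaled totals (vertical axes start at 0), with the 3 replicates of each group as separate symbols and the mean ± SD beside them. Cebpa, Cebpb, Prox1 and Onecut2 were lower in every HepKO library than in any WT library, and the groups overlapped for the other 5.

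Cebpa, which encodes C/EBPα, was the most abundant factor of the 9 and fell in HepKO. The gene (ENSMUSG00000034957.10) lies on the plus strand of chromosome 7 (35119293 to 35121928, GRCm38, the build also called mm10). Its level was 350, 266 and 252 CPM in WT replicates 1 to 3 and 144, 171 and 170 CPM in HepKO. Every HepKO library lay below every WT library, and the HepKO libraries lay closer together. The means were 289 ± 52.7 CPM and 162 ± 15.5 CPM, a fall of 1.79-fold (log2 fold change -0.84 ± 0.15, FDR 0.00348 by edgeR). Its log2 fold change lay at the 10.6 percentile of all tested genes. With library totals the fold change was -0.33 on the log2 scale and was not called (adjusted p = 0.0924, edgeR). An antisense gene, Gm45091, shares 51 exon bases with Cebpa and had 0.334% of its counts.

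Cebpb, the stress-induced C/EBP, showed the largest fall among the 9. The gene (ENSMUSG00000056501.3) is on the plus strand of chromosome 2, from 167688915 to 167690418. Its WT libraries had 29.6, 31.0 and 56.5 CPM and its HepKO libraries 21.2, 11.2 and 11.6 CPM. WT replicate 3 stood above the other WT libraries, and HepKO replicate 1 above the other HepKO libraries, without reaching the WT range. The fall was 2.66-fold (log2 fold change -1.41 ± 0.33, FDR 0.0114 by edgeR), at the 4.10 percentile of all tested genes. It kept its call with library totals (log2 fold change -0.90, adjusted p = 0.0450, edgeR). It was also called with each library left out, with log2 fold changes from -1.78 without HepKO replicate 1 to -1.03 without WT replicate 3 (adjusted p = 0.00414 to 0.0440, edgeR). Tmem189, on the opposite strand, spans the position of Cebpb and shares 312 exon bases with it, and its counts came to 69.1% of those of Cebpb. Tmem189 fell too (log2 fold change -1.16 ± 0.13, FDR 5.89e-04, edgeR), and since the strand setting of the counting is not given in the sources used here, its part in the Cebpb counts was not tested. Macrophages also express Cebpb. Of 10 macrophage markers tested, 9 rose, and their summed level was 136 to 266 CPM in WT and 383 to 627 CPM in HepKO. Leaving out 1 library gave 6 to 10 higher calls, with 6 without HepKO replicate 3 or WT replicate 3, and the replicate block gave 7. The part of macrophages in the Cebpb values was not tested.

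The ratio of the C/EBP genes did not separate the groups. The log2 ratio of Cebpb to Cebpa counts within a library, which no scaling factor enters, was -3.56, -3.10 and -2.16 in WT and -2.76, -3.94 and -3.87 in HepKO. The difference was -0.58 (exact two-sided permutation test, p = 0.40, 0.667 after adjustment over 5 pairs of family members), in a design whose smallest p is 0.10. Per exon length, Cebpa made up 71.8% to 87.1% of the summed Cebpa and Cebpb level in WT and 79.5% to 89.8% in HepKO.

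Prox1 was lower in HepKO by a smaller amount. It is encoded on the minus strand of chromosome 1 (ENSMUSG00000010175.13), from 190118035 to 190170714. It had 184, 197 and 211 CPM in WT and 115, 174 and 121 CPM in HepKO. HepKO replicate 2 came near the lowest WT library, and the other HepKO libraries lay well below. The fall was 1.45-fold (log2 fold change -0.53 ± 0.16, FDR 0.0350 by edgeR). The call ended with library totals (log2 fold change -0.02, adjusted p = 0.930, edgeR) and without any single library other than HepKO replicate 2, with adjusted p-values of 0.0590 to 0.124 for these 5 (edgeR) and a value of 0.00541 without HepKO replicate 2. Prox1os, an antisense gene that shares 133 exon bases with Prox1 and had 2.50% of its counts, also fell (log2 fold change -1.65 ± 0.27, FDR 0.00238, edgeR). Prox1 marks lymphatic endothelium as well, whose defining marker Pdpn had 0 counts in all 6 libraries. The lymphatic list of 4 markers, of which 1 could be tested and rose (Flt4), summed to 12.5 to 20.3 CPM in WT and 24.9 to 39.2 CPM in HepKO. Nearly all of that sum was Flt4, at 12.5, 19.5 and 14.1 CPM in WT and 28.6, 39.0 and 24.8 CPM in HepKO. Mmrn1, which was not tested, had a mean of 0.368 CPM in WT and 0.158 CPM in HepKO. Ccl21a, also not tested, had 1 count in HepKO replicate 1 and 0 counts in the other libraries. Which cells the Flt4 counts came from was not tested.

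The FOXA genes were not called, and their groups overlapped. Foxa3, the FOXA gene with the highest mean level per exon length in both groups, is on chromosome 7 (19013284 to 19023538, minus strand) and had 28.0, 24.0 and 33.7 CPM in WT and 30.4, 38.7 and 38.7 CPM in HepKO. WT replicate 3 lay within the HepKO range, and the log2 fold change was 0.33 ± 0.15 (FDR 0.127, edgeR), with 0.85 and a call under library totals (adjusted p = 0.00248, edgeR). Foxa1, on chromosome 12 (57540628 to 57546916, minus strand), had 15.8, 13.1 and 13.8 CPM in WT and 11.6, 17.9 and 14.9 CPM in HepKO. Its log2 fold change was 0.05 ± 0.17 (FDR 0.835, edgeR), and 0.57 with a call under library totals (adjusted p = 0.0272, edgeR), where the median of all genes was 0.52. Foxa2, on chromosome 2 (148042877 to 148046969, minus strand), acts in fasting metabolism and bile acid handling and is also expressed by bile duct cells. It had 33.6, 17.5 and 12.2 CPM in WT and 19.1, 14.6 and 14.8 CPM in HepKO. The WT libraries spanned the whole HepKO range, and the log2 fold change of -0.38 ± 0.33 (FDR 0.406, edgeR) became 0.12 without WT replicate 1.

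Shares within the FOXA family overlapped between the groups. Per exon length, Foxa3 made up 42.1%, 51.0% and 64.04% of the FOXA level in WT and 56.3%, 62.3% and 63.98% in HepKO. Foxa2 made up 43.4%, 31.9% and 19.95% in WT and 30.5%, 20.1% and 20.99% in HepKO, while Foxa1 stayed between 13.2% and 17.6% in all 6 libraries. The within-library log2 ratios of Foxa1 to Foxa2, Foxa1 to Foxa3 and Foxa2 to Foxa3 differed by 0.30, -0.30 and -0.60, with exact two-sided permutation p-values of 0.60, 0.20 and 0.40 (0.75, 0.667 and 0.667 after adjustment over 5 pairs). Bile duct cells also express FOXA and ONECUT genes. Of 7 cholangiocyte markers tested 3 rose (Spp1, Epcam and Cftr), and the list summed to 41.9 to 68.5 CPM in WT and 145, 549 and 207 CPM in HepKO replicates 1 to 3. Most of that sum was Spp1 alone, at 35.2, 54.4 and 39.9 CPM in WT and 134, 515 and 201 CPM in HepKO. The part of other cells in the Spp1 values, such as the macrophages whose markers rose as given above, was not tested. Krt7 and Krt19, keratins that define duct cells, were not called and were highest in HepKO replicate 2 (1.81 and 5.15 CPM), and Krt23 had a log2 fold change of -0.82, also not called. Without HepKO replicate 2 only Spp1 of the 7 was called and the median of the list went from 1.59 to 0.23, with Epcam at 0.99 (adjusted p = 0.191, edgeR) and Cftr at 2.36 (adjusted p = 0.135, edgeR). Without WT replicate 1 or WT replicate 3, and by limma-voom, 1 of the 7 was called as well, and with the replicate block 2. The part of duct cells in the levels of Foxa1, Foxa2, Onecut1 and Onecut2 was not tested.

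Neither ONECUT gene was called. Onecut1, which encodes HNF6 and lies on chromosome 9 (74861921 to 74891781, plus strand), had 15.6, 4.65 and 13.9 CPM in WT and 3.74, 6.13 and 18.0 CPM in HepKO. The highest and the lowest library of all 6 were both HepKO libraries, and WT replicate 2 stood below the other WT libraries. The log2 fold change was -0.30 ± 0.61 (FDR 0.740, edgeR), the largest SE among the 9, and it ranged from -1.21 without HepKO replicate 3 to 0.08 without HepKO replicate 1. A non-coding gene on the same strand, Gm20649, shares 2171 exon bases with Onecut1 and had 0 counts in all libraries. How the counting treated reads of the shared bases is not given in the sources, and its effect on the level of Onecut1 was not tested. Onecut2, on chromosome 18 (64340020 to 64400987, plus strand), had 146, 137 and 158 CPM in WT and 107, 129 and 129 CPM in HepKO. The groups did not overlap, yet the difference missed the threshold (log2 fold change -0.28 ± 0.11, FDR 0.0854, edgeR) and took the opposite sign, uncalled, with library totals (0.24, adjusted p = 0.104, edgeR). The log2 ratio of Onecut2 to Onecut1 was 3.23, 4.88 and 3.51 in WT and 4.83, 4.39 and 2.84 in HepKO, a difference of 0.15 (exact two-sided permutation test, p = 1.0).

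Gata4 had the smallest difference of the 9. The gene is on chromosome 14 (63198922 to 63271692, minus strand). It had 12.8, 10.7 and 9.25 CPM in WT and 11.3, 9.74 and 11.9 CPM in HepKO, with every HepKO library inside the WT range. The log2 fold change was 0.01 ± 0.16 (FDR 0.953, edgeR), and 0.53 under library totals (adjusted p = 0.0262, edgeR), beside a median of 0.52 for all genes. Sinusoidal endothelial cells also express Gata4. Of 8 sinusoidal markers tested 0 were called by the main edgeR fit, DESeq2 or limma-voom, and in that edgeR fit Pecam1 alone had an unadjusted p under 0.05. Pecam1 was called higher without the filter on low counts (adjusted p = 0.0409, edgeR) and without WT replicate 2 (adjusted p = 0.0345, edgeR). With library totals 5 of the 8 were higher. They summed to 167 to 206 CPM in WT and 180 to 237 CPM in HepKO.

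**Figure D2:**
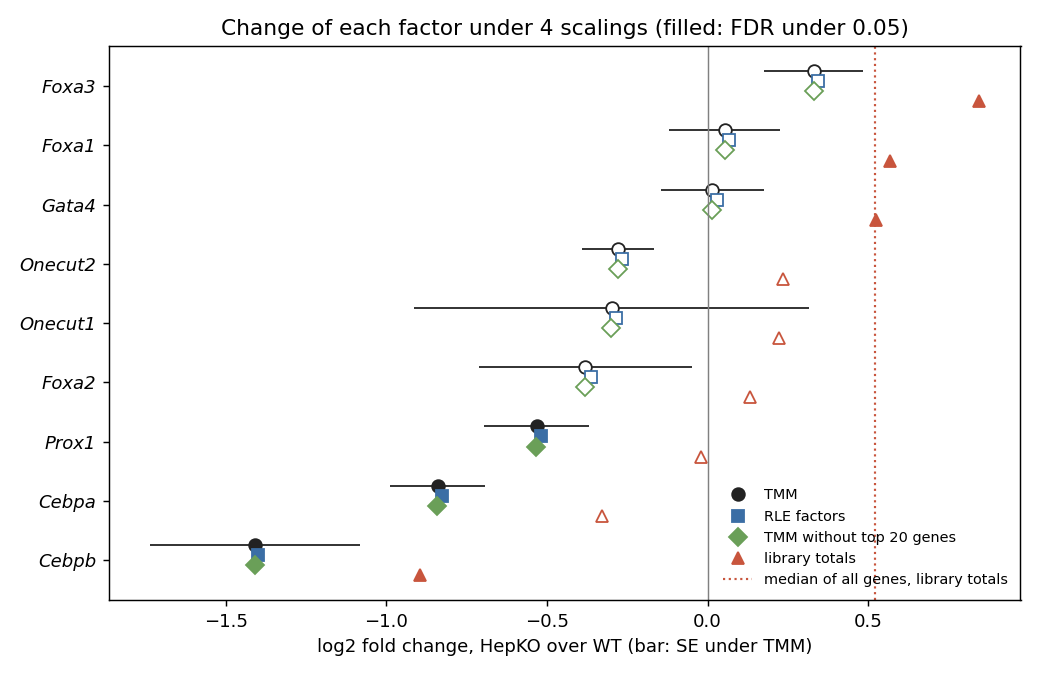
Log2 fold change of each factor (HepKO over WT, horizontal axis) under 4 ways of scaling the libraries, with the SE of the TMM value as a bar, filled symbols for an FDR under 0.05 and a dotted line at the median of all genes under library totals. Values under library totals lay to the right for every factor, and Cebpb was the 1 gene called lower under all 4.

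Because the choice of scaling moved every fold by a similar amount, pairs of factors were also compared as ratios within a library, which no scaling factor enters. This comparison was chosen after the values had been seen. Of 36 pairs, 12 had ratios that did not overlap between the groups, a smaller share than the 51.5% of all pairs of tested genes, so separation as such sets none of these pairs apart. Cebpa and Cebpb each took part in 4 of the 12, as the gene with the lower relative level in HepKO each time, and Foxa1 and Foxa3 each in 4 as the gene with the higher relative level. The log2 ratio of Cebpa to Foxa3 was 3.64, 3.47 and 2.90 in WT and 2.24, 2.14 and 2.13 in HepKO, a difference of -1.17 (2.24-fold). The log2 ratio of Cebpa to Foxa1 was 4.47, 4.35 and 4.19 in WT and 3.63, 3.26 and 3.52 in HepKO (difference -0.87). Cebpb over Foxa3 differed by -1.75, although HepKO replicate 1, at -0.52, stood apart from the other HepKO libraries at -1.80 and -1.73. Prox1 over Foxa3 was lower by 1.85-fold and Onecut2 over Foxa3 by 1.53-fold, both without overlap. No ratio with Foxa2 or Onecut1 separated the groups. Cebpb over Foxa1 was separated by a small gap, from 0.87 in HepKO replicate 1 to 0.90 in WT replicate 1. Between the same libraries the gap was smaller still for Cebpb over Onecut2 (-2.329 to -2.305) and Onecut2 over Foxa1 (3.201 to 3.209).

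**Figure D3:**
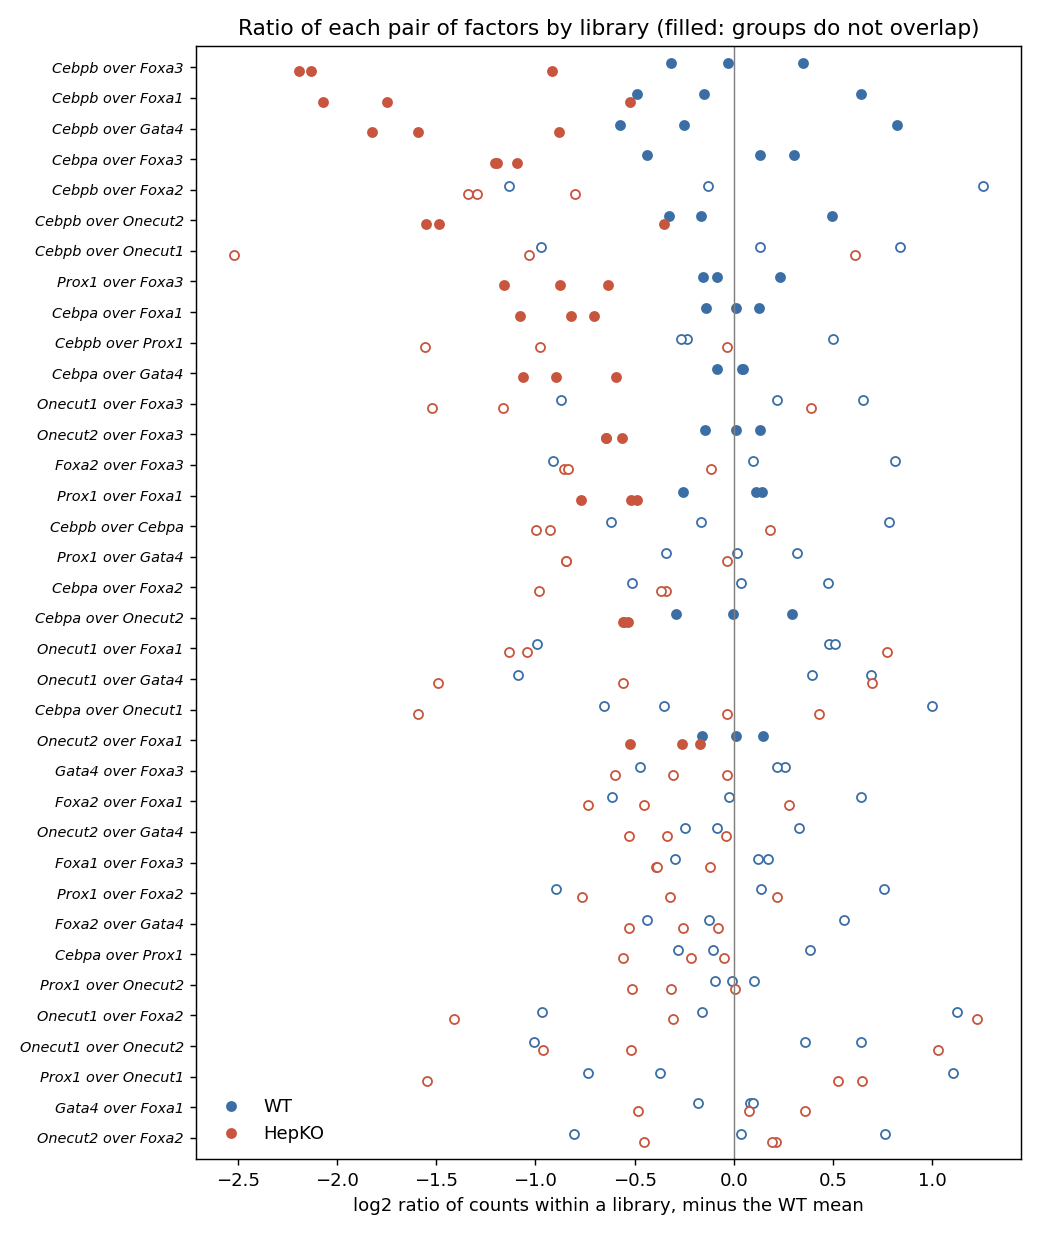
Log2 ratio of counts for all 36 pairs of factors within each library, minus the WT mean of the pair (horizontal axis), with 3 WT and 3 HepKO libraries per row. Each pair is written so that its HepKO mean is the lower one, and the 12 pairs with filled symbols are those whose groups do not overlap.

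Levels were compared between genes as CPM per kilobase of exon (RPKM, with the exon length of GENCODE M21). In WT the order was Cebpa (mean 110 RPKM, from 95.6 to 133), Cebpb (26.0 ± 10.1), Prox1 (23.6 ± 1.61), Foxa3 (14.0 ± 2.38), Onecut2 (9.06 ± 0.651), Foxa2 (8.90 ± 4.69), Foxa1 (4.28 ± 0.426), Gata4 (2.79 ± 0.454) and Onecut1 (2.77 ± 1.43). Neighbours in that order overlapped for Cebpb and Prox1, for Onecut2 and Foxa2, and for Gata4 and Onecut1. In HepKO, Cebpa stayed first at 61.3 ± 5.87 RPKM, above the range of every other factor. Foxa3 (17.7 ± 2.38 RPKM), Prox1 (16.3 ± 3.84 RPKM) and Cebpb (9.75 ± 3.77 RPKM) followed, and each overlapped the next in order, Cebpb also with Onecut2 (7.47 ± 0.782 RPKM). Then came Foxa2 (6.82 ± 1.08), Foxa1 (4.44 ± 0.942), Gata4 (2.82 ± 0.291) and Onecut1 (2.26 ± 1.86). Onecut2 overlapped Foxa2 here too, and Gata4 overlapped Onecut1. By mean level Cebpb ranked 2 in WT and 4 in HepKO.

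**Figure D4:**
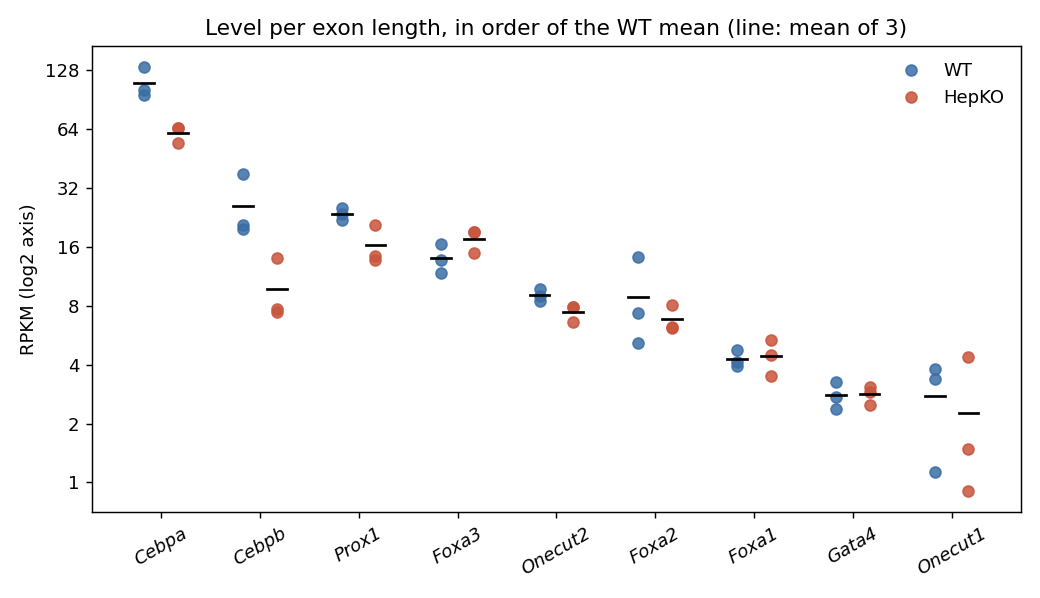
RPKM of each factor in each library on a log2 axis, in order of the WT mean, with a line at the mean of 3 libraries. Cebpa lay above every other factor in both groups, and Gata4 and Onecut1 had the lowest means.

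Many other transcription factors of the hepatocyte network fell. Of 14 tested from a list of 15, 10 fell and 0 rose, with a median log2 fold change of -0.86 beside 0.01 for all genes tested. Ppara, the nuclear receptor of fatty acid oxidation, fell from 290 ± 28.3 to 86.5 ± 14.6 CPM (log2 fold change -1.75 ± 0.15, FDR 1.94e-04, edgeR). Nr1h4, the bile acid receptor, fell from 201 ± 17.2 to 101 ± 6.76 CPM, and Klf15, a factor of amino acid and glucose metabolism, from 157 ± 35.3 to 51.9 ± 7.61 CPM. With library totals 6 of the 14 were lower and 1 higher, and with the replicate number as a block 8 were lower. Hhex, the untested gene of the list, had at most 0.279 CPM in a library.

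Relatives of the members by protein family went both ways. Of 13 tested from 17, 5 fell and 2 rose (median -0.09). The forkhead genes Foxo1 and Foxo3, which act downstream of insulin signalling, fell from 103 ± 24.4 to 41.5 ± 6.06 CPM and from 88.2 ± 11.8 to 51.6 ± 6.17 CPM. Foxm1, a forkhead gene of dividing cells, rose from 0.407 ± 0.230 to 4.06 ± 1.99 CPM (log2 fold change 3.31 ± 0.52, FDR 0.00220, edgeR). Without HepKO replicate 1, WT replicate 2 or WT replicate 3, 3 of the 13 were called lower in place of 5. With library totals 1 was lower and 4 were higher, and Foxo3 was not called (adjusted p = 0.131, edgeR). Ddit3, the other relative that rose, encodes a C/EBP family member of the stress response and went from 3.94 ± 0.318 to 16.4 ± 9.43 CPM. It has 2 gene IDs, of which the one with more counts was used.

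Regulators of bile duct fate were higher where they were called. Of 6 tested, 3 rose and 0 fell (median 1.23), and with library totals all 6 were higher. Sox4 rose from 2.91, 2.81 and 1.38 CPM in WT to 23.5, 41.6 and 33.2 CPM in HepKO (log2 fold change 3.79 ± 0.32, FDR 2.12e-04, edgeR). Hes1, a target of Notch signalling, rose from 6.67 ± 1.80 to 19.4 ± 5.28 CPM, and Sox9 from 4.87 ± 2.21 to 16.6 ± 7.04 CPM. Of the 7 cholangiocyte markers given above, only 3 rose, and only Spp1 was called without HepKO replicate 2. The part of duct cells in the values of these regulators was not tested.

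Textbook targets of the FOXA, C/EBP and ONECUT factors went both ways. Of 22 tested, 12 fell and 5 rose (median -0.79). The higher calls numbered 3 without HepKO replicate 2, HepKO replicate 3, WT replicate 1 or WT replicate 2. Among 8 acute-phase proteins, known as C/EBPβ targets, 4 rose (Hp, Hpx, Lcn2 and Lbp) and 1 fell (Itih4), while among the other 14 targets 11 fell and 1 rose. This grouping was made after the values had been seen, and no test compared the groups of genes. The acute-phase genes Orm1, Saa1 and Saa2 had log2 fold changes of -0.20, -0.05 and -0.03 without a call. Hp and Hpx lost their calls without any single library other than HepKO replicate 1, which left Lcn2 and Lbp. Gys2, the liver glycogen synthase and a C/EBPα target, fell from 348 ± 28.0 to 123 ± 10.3 CPM (log2 fold change -1.50 ± 0.11, FDR 1.40e-04, edgeR). Cps1, the entry enzyme of the urea cycle, fell from 4070 ± 456 to 1444 ± 169 CPM. Afp, the fetal serum protein, rose from 1.64 ± 0.144 to 16.9 ± 4.08 CPM (log2 fold change 3.36 ± 0.22, FDR 1.11e-04, edgeR). Lcn2 is also a granule gene of neutrophils, whose markers rose as given above, and their part in its value was not tested. With library totals 9 of the 14 other targets were lower and 2 higher, and 4 of the 8 acute-phase genes were higher and 0 lower.

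**Figure D5:**
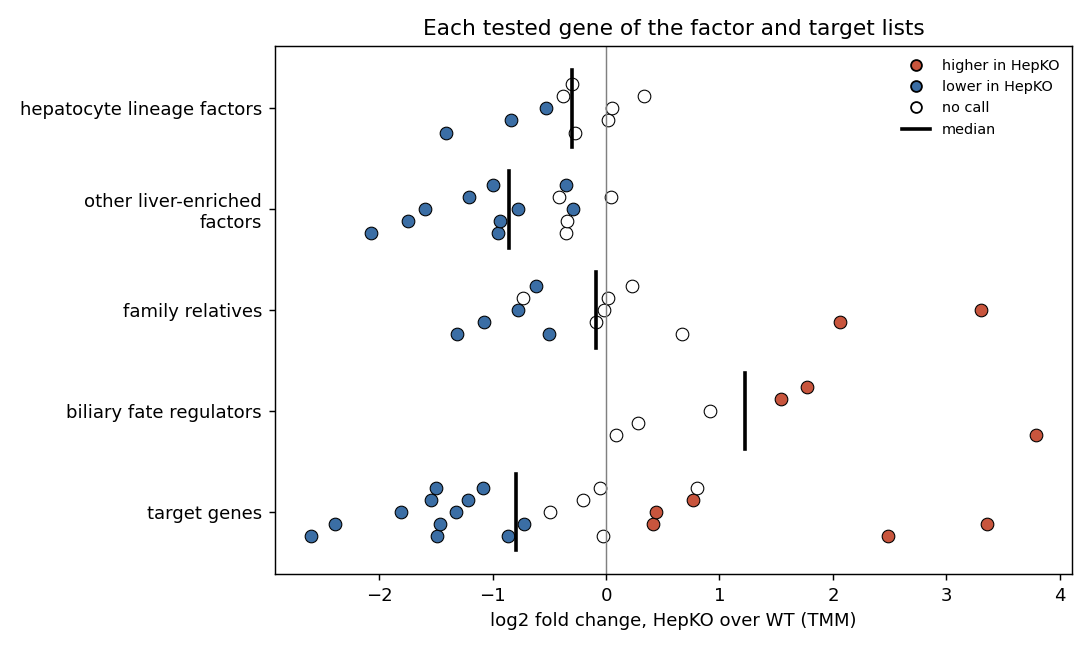
Log2 fold change (TMM, HepKO over WT) of each tested gene of 5 lists, 1 point per gene, coloured by call, with a bar at the median of the list. The other liver-enriched factors lay further to the left than the 9 lineage factors, and the called bile duct regulators lay to the right.

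For each member the protein-coding genes with the closest profile over the 6 libraries were found among 9474 genes with a mean of at least 5 CPM. The measure was the root mean square gap between log2 CPM values after each gene's mean was removed. Cebpa lay closest to H1f0, a linker histone gene (gap 0.0370, log2 fold change -0.87), and Slc17a5, the lysosomal sialic acid exporter (gap 0.0744). Cebpb lay closest to Por, the electron donor of the cytochrome P450 enzymes (gap 0.163, log2 fold change -1.54), and to Aspa (gap 0.165). Por shared the high values of WT replicate 3 (819 CPM, beside 470 and 574 CPM) and HepKO replicate 1 (319 CPM, beside 174 and 148 CPM). Prox1 lay closest to Mpzl3 (gap 0.0522), Onecut2 to Chp1 (gap 0.0210) and Gata4 to Lamtor3 (gap 0.0254). Foxa1 lay closest to Rfxank (gap 0.0583), Foxa3 to Zc3h7a (gap 0.0898) and Foxa2 to Rassf6 (gap 0.159). Onecut1 had no close neighbour: the nearest, the complement gene C8b, was at a gap of 0.450. Among the members themselves the closest profiles were those of Foxa1 and Onecut2 (gap 0.211) and of Onecut2 and Prox1 (gap 0.212).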

How the data were processed

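Polyadenylated RNA of 6 mouse liver samples was made into libraries with a stranded kit, per the labels' protocols. The authors deposited raw read counts per gene. Build mm10 was used, per the submitters' processing notes, which also name STAR 2.7.11a, bcl2fastq, featureCounts, Subread 2.0.0 and edgeR 3.40.2. Annotation release and strand setting: not given in the sources used here. IDs were matched without version to GENCODE M21 (55480 of 56350). Genes were filtered with filterByExpr by group, scaled with TMM and tested on the deposited counts by the quasi-likelihood method of edgeR 4.0.16 (R 4.3.3), without covariates. The SE is the log2 fold change over the square root of F. The test was tried on simulated data. Ratios used counts plus 0.5 and exact permutation tests in SciPy 1.17.1. No library repeated another: within a group, chi-square over its degrees of freedom ran from 27.6 to 138.

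The members and lists were chosen with earlier results of these data known. All 9 members, Atg14, the 3 genes of each list with the smallest p and the 2 nearest profiles per member were eligible for naming, and any other gene was named after its values were seen. One hepatocyte marker symbol (Tf) had no match. Alternatives were DESeq2 1.42.0, limma-voom (limma 3.58.1), RLE factors, library totals, TMM without the 20 most abundant genes, 2 other filters, an FDR of 0.01, the replicate number as a block and leaving out each library.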

Additional observations from a re-analysis of the deposited data

How the results depend on the processing

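Under library totals 3 members were called higher and 1 lower, and 7442 genes were called higher and 937 lower, since the median of all genes moved to 0.52. This raised the share of calls that were higher from 51.0% to 88.8%. At an FDR under 0.01 the members counted 0 higher and 1 lower, and all genes 1751 and 1693. DESeq2, limma-voom, RLE factors, TMM without the 20 most abundant genes and both other filters kept 0 members higher and 3 lower. Leaving out 1 library at a time gave 0 members higher and 2 to 3 lower, with Prox1 the call lost. Deviations from the group means gave no sign that the labels' replicate numbers pair the libraries. Correlations ran from -0.12 to 0.00152 for same-numbered libraries and from -0.12 to 0.18 for differently numbered ones. With 3 libraries a group this check cannot exclude a pairing. With the replicate block 3 members were lower, 0 higher, and 2569 and 2502 of all genes were higher and lower. The block left the ratio differences at -0.58 for Cebpb over Cebpa, 0.30 for Foxa1 over Foxa2, -0.30 for Foxa1 over Foxa3, -0.60 for Foxa2 over Foxa3 and 0.15 for Onecut2 over Onecut1, where the smallest possible p is 0.25. With 1 library left out, the difference ranged from -0.018 to 0.61 for Foxa1 over Foxa2 and from -0.26 to 0.74 for Onecut2 over Onecut1, with a negative sign in 1 and 4 of the 6 fits. The other 3 ratios kept their sign, from -0.96 to -0.19 for Cebpb over Cebpa, from -0.45 to -0.21 for Foxa1 over Foxa3 and from -1.06 to -0.19 for Foxa2 over Foxa3. With 3 libraries a group, ratios could not reach a p under 0.10.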
